A study of Mus musculus with 8 samples.

Results

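The 6 genes described here make GABA or load GABA and glutamate into synaptic vesicles: Gad1, Gad2, Slc32a1, Slc17a7, Slc17a6 and Slc17a8. They were chosen by gene symbol from single-cell RNA sequencing of prefrontal cortex (PFC) and striatum, and are 6 of the 31053 genes in the count tables, of which 22176 had at least 1 unique molecular identifier (UMI) in an annotated cell. The 8 libraries fall into 4 groups of 2: WT PFC, Setd1a+/- PFC, WT striatum and Setd1a+/- striatum. Each library holds pooled tissue of 2 male C57BL/6N mice. The labels give 8 to 10 weeks of age and the study's methods give an older age. Setd1a+/- mice carried a CRISPR-Cas9 frameshift in exon 15 of 1 copy of Setd1a, a histone methyltransferase gene, and came from a single backcrossed allele; the WT mice were littermates. The labels call the striatal tissue NAc (nucleus accumbens), while the study's text calls it striatum, the name used here. Papain digestion was longer for the striatum, so tissue and digestion cannot be told apart.

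Gad1 and Gad2 encode the glutamate decarboxylases GAD67 and GAD65, which turn glutamate into GABA, the main inhibitory transmitter of the forebrain. Slc32a1 encodes VGAT, which carries GABA and glycine into synaptic vesicles. Slc17a7, Slc17a6 and Slc17a8 encode VGLUT1, VGLUT2 and VGLUT3, the vesicular glutamate transporters: VGLUT1 is the main form of cortical excitatory neurons, VGLUT2 that of the thalamus and many subcortical neurons, and VGLUT3 is found mostly in neurons that release another transmitter too, among them the cholinergic interneurons of the striatum. Medium spiny neurons (MSNs), which make up most of the striatum, are GABAergic and fall into D1 and D2 types by their dopamine receptor.

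The libraries held 15154268 to 26277553 UMIs, and the authors' annotation covers 1508 to 2680 cells in each PFC library and 2495 to 4361 in each striatal library, 23687 in all, with a median of 2530 UMIs. Between 8 and 54 annotated cells of a library shared their barcode with a cell of another library (0.530 to 1.60%). Markers of astrocytes, microglia, oligodendrocytes, endothelial cells, and D1 and D2 MSNs were highest in the type of that name. The striatal cells annotated as interneurons went against their label in part: they held the highest striatal levels of the excitatory neuron markers Neurod6, Neurod2 and Tbr1, and are taken apart below. Setd1a averaged 11.8 CPM (UMIs per 1000000 UMIs summed over the same cells of a library) in WT and 8.46 CPM in Setd1a+/- excitatory neurons (log2 FC -0.49, SE 0.35, edgeR FDR 1.0). The 3′ tags lie outside the deletion, so this level does not check the genotype. Droplets with 10 to 100 UMIs, too few for a cell, were summed as a measure of free RNA.

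In the PFC, the GABA genes were counted mainly in the 298 cells annotated as interneurons. Gad1 stood at 1903 and 1297 CPM in WT replicates 1 and 2, the order used throughout, and 1644 and 1526 CPM in the Setd1a+/- replicates (mean 1593 ± 252, SD, n = 4 libraries), and 94.3% of the cells had a UMI of it. Gad2 stood at 2015 and 1255 CPM in WT libraries and 1658 and 1470 CPM in Setd1a+/- ones (mean 1599 ± 322), also in 94.3% of the cells. WT replicate 1 was the highest and WT replicate 2 the lowest library for both, so the genotypes overlapped. Slc32a1 stood at 432 and 325 CPM in WT libraries and 553 and 351 CPM in Setd1a+/- ones (mean 415 ± 102), in 78.5% of the cells. Gad1 and Gad2 were found together in 89.9% of these cells, against 88.9% given by the product of their separate shares. Free RNA of the PFC libraries had Gad1 at 86.9 to 168 CPM, Gad2 at 50.5 to 102 CPM and Slc32a1 at 13.6 to 36.6 CPM, under every interneuron library. UMIs are counted at the 3′ end without a length correction, so levels are compared between cells and not between genes.

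All 3 GABA genes lie on mouse chromosome 2 (GENCODE vM21, GRCm38): Gad1 at chr2:70553072-70602014, Gad2 at chr2:22622205-22693874 and Slc32a1 at chr2:158610767-158615748, all on the plus strand. Slc17a7 lies at chr7:45163949-45176142 (plus), Slc17a6 at chr7:51622006-51671119 (plus) and Slc17a8 at chr10:89574020-89621253 (minus). Gad1 and Slc32a1 each overlap a gene annotated on the opposite strand (Gad1os and Gm14205), whose reads can be told apart only if strand was used in counting. Since the 3 GABA genes and Slc17a7 mark opposite neuron classes, their promoters are shown from RefSeq (GRCm38.p6), 250 bases before to 50 after the annotated start, all on the plus strand, at chr2:70561879-70562178, chr2:22622077-22622376, chr2:158610508-158610807 and chr7:45163671-45163970 in this order. Capitals mark matches on either strand to the GC box GGGCGG, the TATA box TATAAA or the E-box CAGATG.
Gad1: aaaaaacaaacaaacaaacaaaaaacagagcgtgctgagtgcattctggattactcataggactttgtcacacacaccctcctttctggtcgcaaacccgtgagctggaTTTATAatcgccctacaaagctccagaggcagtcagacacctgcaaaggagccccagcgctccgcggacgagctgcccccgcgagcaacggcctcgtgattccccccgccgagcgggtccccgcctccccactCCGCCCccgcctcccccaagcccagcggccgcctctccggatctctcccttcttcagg
Gad2: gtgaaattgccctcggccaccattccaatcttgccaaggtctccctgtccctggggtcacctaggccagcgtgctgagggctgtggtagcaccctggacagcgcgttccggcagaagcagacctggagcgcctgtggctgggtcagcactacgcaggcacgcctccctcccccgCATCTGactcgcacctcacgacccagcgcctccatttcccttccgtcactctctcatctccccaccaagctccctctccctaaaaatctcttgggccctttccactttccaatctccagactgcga
Slc32a1: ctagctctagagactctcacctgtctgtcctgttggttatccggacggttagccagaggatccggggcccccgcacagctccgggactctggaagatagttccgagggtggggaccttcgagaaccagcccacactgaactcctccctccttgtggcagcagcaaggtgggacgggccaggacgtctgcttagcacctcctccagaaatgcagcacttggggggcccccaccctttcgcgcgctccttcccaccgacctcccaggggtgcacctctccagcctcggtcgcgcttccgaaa
Slc17a7: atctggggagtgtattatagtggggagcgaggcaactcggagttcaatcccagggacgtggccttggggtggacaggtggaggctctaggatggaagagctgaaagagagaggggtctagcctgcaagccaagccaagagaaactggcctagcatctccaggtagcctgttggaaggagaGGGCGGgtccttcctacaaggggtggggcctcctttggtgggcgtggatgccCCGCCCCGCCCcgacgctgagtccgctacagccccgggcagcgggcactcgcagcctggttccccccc

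The Gad1 window held 1 GC box and 1 TATA box, the Gad2 window 1 E-box, and the Slc17a7 window 3 GC boxes, some of them overlapping. Of the 32544 RefSeq windows of this length, 35.9% held a GC box, 13.6% a TATA box and 17.1% that E-box. None of the 4 windows held TAATTA, the core bound by homeodomain factors such as the Dlx family, which 5.29% of all windows held, or the cAMP response element TGACGTCA, which 1.80% held. The Slc32a1 window matched none of the 5. The 4 windows were 60.0, 61.3, 63.3 and 63.7% G or C, against a median of 53.0% over all windows, and had 21, 14, 17 and 13 CpG dinucleotides, against a median of 7. These matches describe letters and not bound sites.

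In the striatum, the MSNs held most UMIs of the GABA genes. In the 3904 D1 MSNs, Gad1 stood at 327 and 363 CPM in WT libraries and 369 and 329 CPM in Setd1a+/- ones (mean 347 ± 22.0) and was found in 62.5% of the cells. Gad2 stood at 601 and 565 CPM in WT libraries and 585 and 504 CPM in Setd1a+/- ones (mean 564 ± 42.2), in 75.7% of the cells. Slc32a1 stood at 265 and 321 CPM in WT libraries and 269 and 274 CPM in Setd1a+/- ones (mean 282 ± 25.9), in 57.7% of the cells. The 2451 D2 MSNs had Gad1 at 354 ± 17.3 CPM, Gad2 at 489 ± 58.8 CPM and Slc32a1 at 276 ± 33.5 CPM, and the ranges of D1 and D2 MSNs overlapped for each of these genes. Free RNA of the striatal libraries had Gad1 at 381 to 430 CPM, above every MSN library, Slc32a1 at 231 to 316 CPM, within the range of the MSNs in part, and Gad2 at 348 to 366 CPM, under every MSN library. Striatal oligodendrocytes, which should lack these genes, had Gad1 in 3.84%, Gad2 in 3.41% and Slc32a1 in 2.09% of cells at a median of 2076 UMIs per cell, against a median of 3167 in D1 MSNs. The part of free RNA in the MSN levels was not tested. For Gad1 the order ran from PFC interneurons through striatal interneurons to D2 and D1 MSNs, and the first 3 ranges did not overlap. For Gad2 the D1 MSNs, D2 MSNs and striatal interneurons followed the PFC interneurons without overlap. Among these striatal types each overlapped the next in the order. The types were named from clusters of the same genes, so these orders are descriptions and were not tested.

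**Figure D1:**
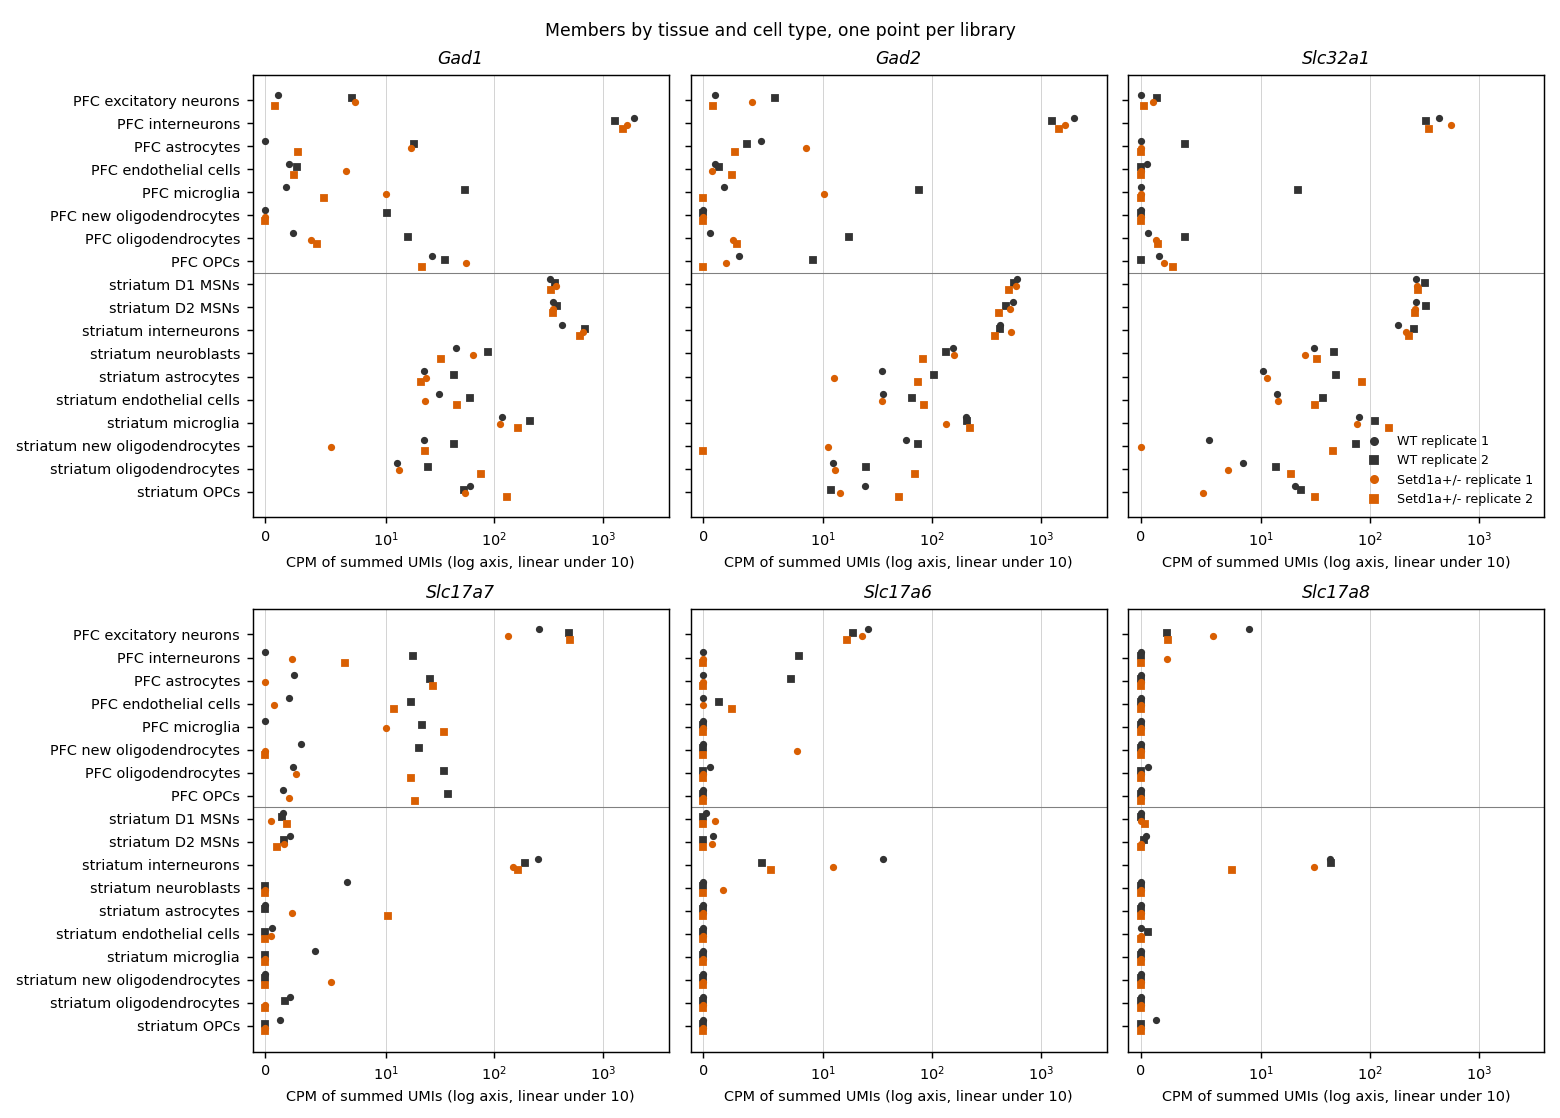
Level of each of the 6 genes (CPM) in the annotated cell types of the PFC and the striatum, with 1 point per library on a log axis that is linear under 10. The GABA genes are highest in PFC interneurons (mean 1593 CPM for Gad1), followed by the striatal neurons, and Slc17a7 is highest in PFC excitatory neurons, with striatal interneurons next.

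The balance of Gad1 and Gad2 differed between these neurons. Gad1 made up 50.03 ± 1.10% of the UMIs of the 2 genes in PFC interneurons, 38.1 ± 1.94% in D1 MSNs, 42.2 ± 3.32% in D2 MSNs and 57.0 ± 5.77% in striatal interneurons (SD, n = 4 libraries each). Every library of the D1 MSNs and of the D2 MSNs was under every library of the PFC interneurons. In striatal interneurons the share was 49.5 and 61.5% in WT and 55.4 and 61.6% in Setd1a+/- libraries, and in D2 MSNs it was 38.5 and 44.6% in WT and 40.2 and 45.3% in Setd1a+/- libraries. Replicate 2 was above replicate 1 in both genotypes in each of these types.

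Oligodendrocyte progenitor cells (OPCs), which receive synapses from neurons, held Gad1 with little Gad2. In the PFC, Gad1 stood at 27.0 and 35.2 CPM in WT libraries and 55.3 and 21.4 CPM in Setd1a+/- OPCs, and 78 of 1337 cells (5.83%) had a UMI of it, while 10 cells had Gad2 and 3 had both. Oligodendrocytes of the PFC, which should lack the gene, had Gad1 in 1.18% of cells at a median of 2056 UMIs per cell, against a median of 1651 in OPCs. Free RNA of the PFC libraries had Gad1 at 86.9 to 168 CPM, above the OPC level, and there Gad1 made up 64.0 ± 4.03% of the UMIs of the 2 genes, against 91.5 ± 9.06% in PFC OPCs (81 UMIs of Gad1 and 10 of Gad2). In striatal OPCs, Gad1 stood at 59.6 and 52.6 CPM in WT libraries and 54.0 and 129 CPM in Setd1a+/- ones, in 127 of 1441 cells (8.81%), against 3.84% of striatal oligodendrocytes. Gad1 made up 76.2 ± 5.17% there (146 and 46 UMIs), against 53.0 ± 1.34% in the free RNA of the striatal libraries. The part of free RNA in the OPC levels was not tested.

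The cells annotated as neural stem cells and neuroblasts had the opposite balance, with Gad1 at 29.7 ± 7.23% of the UMIs of the 2 genes (70 UMIs of Gad1 and 174 of Gad2). Their Gad2 level was 156 and 135 CPM in WT libraries and 159 and 81.5 CPM in Setd1a+/- ones, with a UMI in 25.9% of 437 cells. Their Gad1 level was 44.1 and 88.1 CPM in WT libraries and 63.5 and 32.6 CPM in Setd1a+/- ones. The Gad2 levels were under the 348 to 366 CPM of the free RNA of these libraries, and the Gad1 levels under its 381 to 430 CPM.

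**Figure D2:**
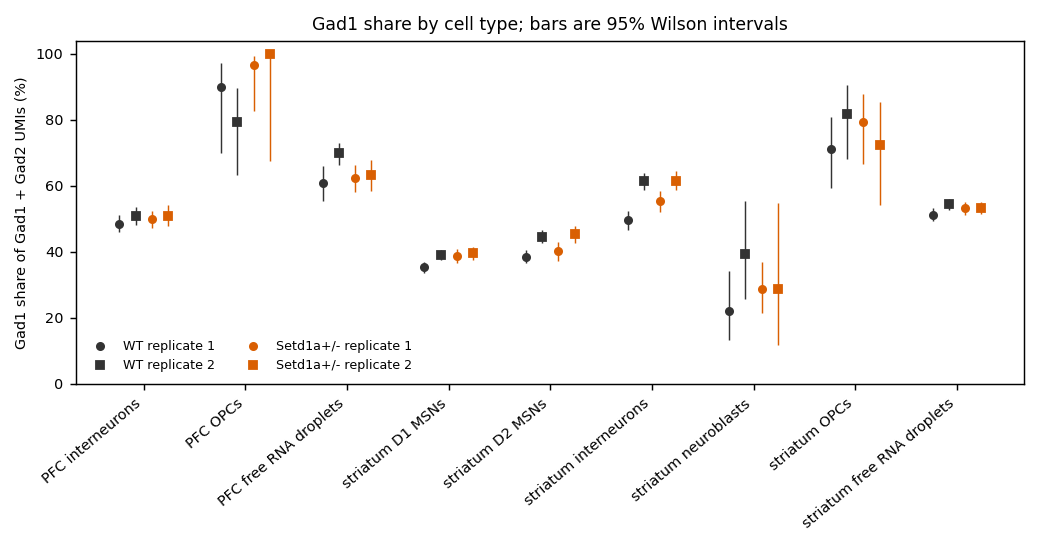
Gad1 as a percent of Gad1 and Gad2 UMIs, with 1 point per library and bars for 95% Wilson intervals, in neurons, OPCs and neuroblasts and in free RNA droplets. OPCs of both tissues lie above the free RNA of their tissue, while the PFC interneurons, the D1 MSNs, the D2 MSNs and the neuroblasts lie below it.

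The striatal interneurons differed from the PFC interneurons in holding Slc17a7. Over 821 cells, Slc17a7 stood at 251 and 191 CPM in WT libraries and 149 and 165 CPM in Setd1a+/- ones (mean 189 ± 44.7), and 190 cells (23.1%, 95% Wilson interval 20.4 to 26.1%) had a UMI of it. The share was 25.2 and 20.6% in WT and 20.3 and 24.6% in Setd1a+/- libraries, so each of the 4 libraries held such cells. D1 MSNs of the same libraries had Slc17a7 in 0.461% of cells at a median of 3167 UMIs, against a median of 4787 UMIs in interneurons. Free RNA of the striatal libraries had Slc17a7 at 15.7 to 52.1 CPM, under the interneuron level in every library. With each cell thinned to 1000 UMIs, 9.99% of interneurons and 0.231% of D1 MSNs had a UMI of Slc17a7. Gad1 was found in 63.5%, Gad2 in 69.1% and Slc32a1 in 54.7% of the striatal interneurons.

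Slc17a7 and the GABA genes were mostly in different cells of this cluster. Among the 821 cells, 41 (4.99%) had Slc17a7 together with Gad1, Gad2 or Slc32a1, against 18.4% given by the product of the separate shares. These 41 had a median of 7698 UMIs, against 4762 in the other cells, and the 149 cells with Slc17a7 and no GABA gene had a median of 6854. No doublet caller was run, so the part of doublets in cells holding both was not tested. In all, 70.4% of the cells had a GABA gene and no glutamate transporter, 19.0% had a glutamate transporter and no GABA gene, 9.1% had both and 1.5% had neither. In the PFC, 11 of 298 interneurons had a UMI of Slc17a7, and all 11 also had a GABA gene.

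**Figure D3:**
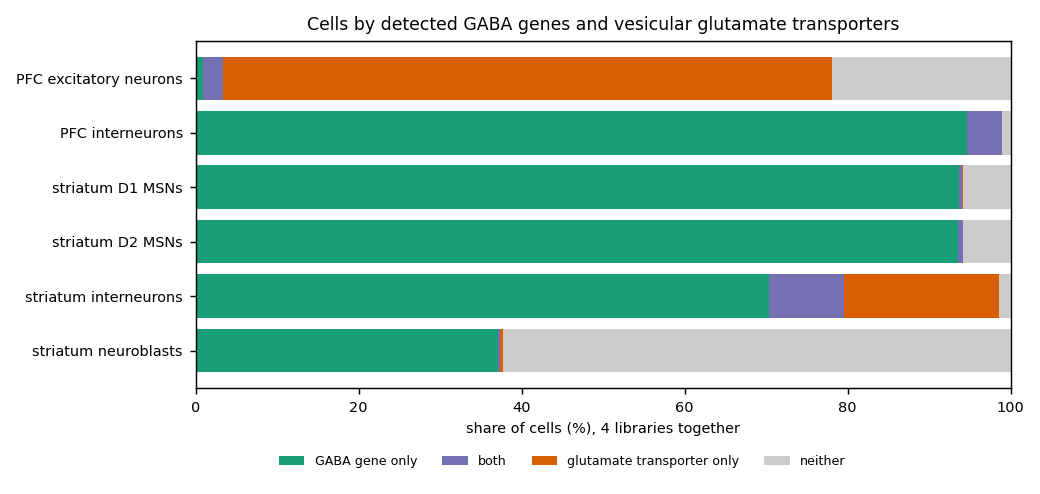
Percent of cells with a UMI of a GABA gene (Gad1, Gad2 or Slc32a1), of a vesicular glutamate transporter, of both or of neither, by cell type, over the cells of the 4 libraries of a tissue. Among striatal interneurons 19.0% of cells have a glutamate transporter without a GABA gene.

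The genes that went with Slc17a7 were those of cortical projection neurons. The 190 cells with a Slc17a7 UMI had Neurod6 at 322 CPM, Tbr1 at 159 CPM and Neurod2 at 81.1 CPM, transcription factors of cortical excitatory neurons. The 612 cells with a GABA gene and no Slc17a7 UMI had them at 0.99, 1.28 and 1.71 CPM. In the other direction, the Slc17a7 cells had Gad1 at 26.0 CPM, Gad2 at 26.8 CPM and Slc32a1 at 14.1 CPM, against 844, 628 and 317 CPM. Lhx6, a factor of interneurons from the medial ganglionic eminence, stood at 2.23 CPM against 114 CPM, and Sst, the neuropeptide somatostatin, at 15.6 CPM against 5521 CPM. The cells were grouped by Slc17a7 itself and clustered on these genes, so the values are descriptions. The label interneuron therefore covers GABA cells and Slc17a7 cells, and levels over all striatal interneurons mix them.

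Slc17a8 marked another part of the striatal interneurons. It was found in 33 of the 821 cells (14 and 11 in WT, 4 and 4 in Setd1a+/- libraries), at 43.2 and 43.6 CPM in WT libraries and 30.8 and 7.54 CPM in Setd1a+/- ones. Of the 33 cells, 32 had a GABA gene (median 8381 UMIs, against 4746 in the other interneurons) and 1 had Slc17a7. They had Slc5a7, the choline transporter, at 1460 CPM, Slc18a3, the vesicular acetylcholine transporter, at 208 CPM and Chat, choline acetyltransferase, at 139 CPM. The other 788 cells had Slc5a7 at 35.6 CPM and Chat at 1.86 CPM. The Slc17a8 cells had Gad2 at 444 CPM, Gad1 at 225 CPM and Slc32a1 at 132 CPM, and Neurod6, Tbr1 and Neurod2 were at 0. Free RNA of the striatal libraries had Gad1 and Slc32a1 above these levels (381 to 430 and 231 to 316 CPM) and Gad2 at 348 to 366 CPM. The Slc17a7 cells of the same cluster, with a median of 6908 UMIs, had Gad2 in 14.2%, Gad1 in 8.95% and Slc32a1 in 6.84% of cells, against 93.9, 66.7 and 48.5% of the Slc17a8 cells at a median of 7630 UMIs. The part of free RNA in the GABA genes of the Slc17a8 cells was not tested. Slc17a6 was found in 33 striatal interneurons (21 and 4 in WT, 4 and 4 in Setd1a+/- libraries), and 24 of them also had Slc17a7.

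**Figure D4:**
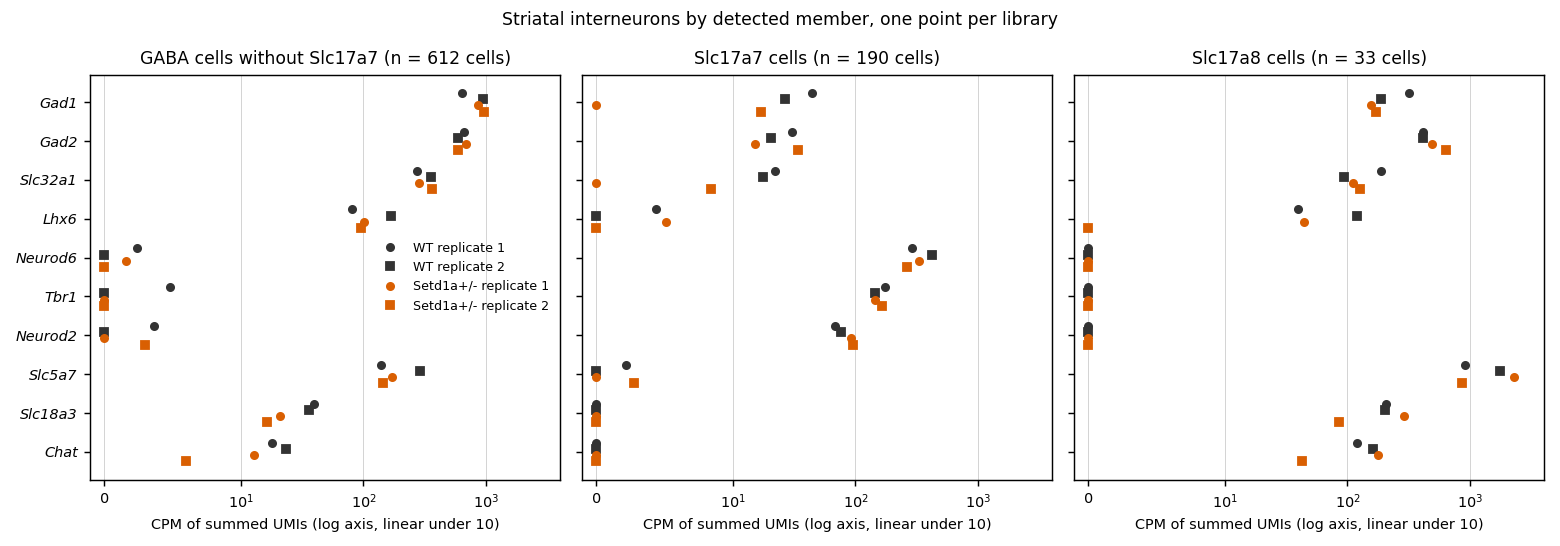
Levels (CPM, log axis that is linear under 10) of transmitter and marker genes in striatal cells annotated as interneurons, with 1 point per library and the cells split by the genes they hold, Slc17a8 cells being nearly all among the GABA cells too. Slc17a7 cells have Neurod6 and Tbr1 (322 and 159 CPM) with little Gad1, and Slc17a8 cells have Slc5a7 (1460 CPM) together with Gad2.

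In the PFC, Slc17a7 was counted mainly in the 2775 excitatory neurons, and its level followed the replicate. It stood at 258 and 481 CPM in WT libraries and 133 and 493 CPM in Setd1a+/- ones (mean 341 ± 176), with a UMI in 77.1, 80.4, 52.7 and 80.4% of cells in the same order. Both replicate 1 libraries were below both replicate 2 libraries. In a test added after seeing the data, replicate 2 was higher than replicate 1 by a log2 FC of 1.49 (SE 0.22, edgeR FDR 2.2e-04), where 855 of 11665 genes (7.33%) were called. It was also higher in all 6 excitatory neuron subtypes tested (log2 FC 1.03 to 1.62), where 4.79% of all tests were called. The free RNA moved with it: Slc17a7 was at 107 and 84.3 CPM in the replicate 1 droplets and at 417 and 413 CPM in the replicate 2 droplets. In other PFC types, where Slc17a7 was rare and 4.23% of all tests were called, the WT libraries held 4 and 13 UMIs and the Setd1a+/- libraries 1 and 5 UMIs of it in endothelial cells, 4 and 28 and 2 and 12 UMIs in oligodendrocytes, and 1 and 29 and 1 and 7 UMIs in OPCs. These passed the filter through replicate 2 and add no test of the difference.

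The subtypes of excitatory neurons, which the authors named by layer (SL, superficial; DL, deep) and a marker gene, differed in Slc17a7 within each library. DL-Etv1 neurons had 293 and 671 CPM in WT libraries and 170 and 644 CPM in Setd1a+/- ones, with a UMI in 90.1% of cells. SL-Myh7 neurons had 181 and 296 CPM in WT libraries and 102 and 230 CPM in Setd1a+/- ones. DL-Tshz2 neurons had the lowest level in 3 of the 4 libraries, at 108 and 259 CPM in WT libraries and 60.1 and 231 CPM in Setd1a+/- ones, with a UMI in 42.8% of 304 cells. Their median depth was 4577 UMIs per cell, against 10331 in DL-Etv1 neurons, and CPM does not carry that difference.

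The other glutamate transporters were concentrated in DL-Tshz2 neurons. Of 396 Slc17a6 UMIs in excitatory neurons, 226 were in this subtype, where the level was 150 and 205 CPM in WT libraries and 139 and 172 CPM in Setd1a+/- ones (mean 166 ± 29.3), in 140 of 304 cells (46.1%). SL-Cux2 neurons had Slc17a6 at 20.1 and 20.5 CPM in WT libraries and 20.4 and 19.8 CPM in Setd1a+/- ones, in 65 of 626 cells, and the subtypes did not overlap. Slc17a8 stood at 74.98 and 42.8 CPM in WT libraries and 60.1 and 52.9 CPM in Setd1a+/- DL-Tshz2 neurons (mean 57.7 ± 13.6), in 55 cells (18.1%), and 83 of 86 Slc17a8 UMIs of excitatory neurons were there. Free RNA of the PFC libraries had Slc17a6 and Slc17a8 at under 10 CPM.

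Within DL-Tshz2, co-detection was set against the product of the separate shares. Slc17a6 and Slc17a7 were together in 68 cells (22.4%, Wilson interval 18.0 to 27.4%), against 19.7%. Slc17a7 and Slc17a8 were together in 7.57%, against 7.74%, and Slc17a6 and Slc17a8 in 11.5% (35 cells, interval 8.40 to 15.6%), against 8.33%. The product lay inside the counting interval for both pairs with Slc17a7 and under it for Slc17a6 with Slc17a8. Cells with Slc17a7, Slc17a6 or Slc17a8 had medians of 5082, 5023 and 5235 UMIs, and the 90 cells with none of the 3 had a median of 3752, so depth moved with detection. In this subtype Slc17a7 and Slc17a6 were higher and Slc17a8 was lower in replicate 2 than in replicate 1 in both genotypes, and of these only Slc17a7 passed the test there. Over all excitatory neurons Slc17a8 stood at 9.01 and 2.23 CPM in WT libraries and 5.99 and 2.27 CPM in Setd1a+/- ones. These came from 34 and 16 UMIs in WT and 28 and 8 UMIs in Setd1a+/- libraries. The gene reached the replicate test through replicate 1, so its call is not given as a result. The share of DL-Tshz2 cells moved with the Slc17a8 level: they were 78 of 410 and 101 of 692 excitatory neurons in the replicate 1 libraries and 88 of 1189 and 37 of 484 in those of replicate 2.

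**Figure D5:**
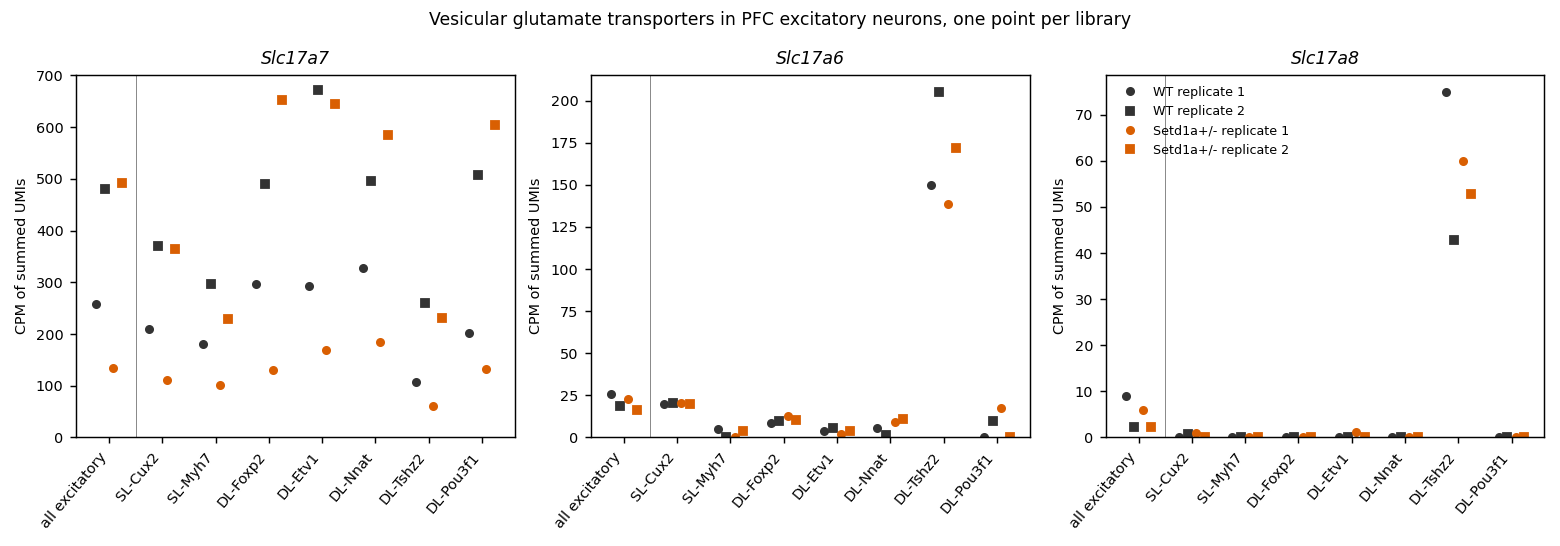
Slc17a7, Slc17a6 and Slc17a8 (CPM) in the PFC excitatory neuron subtypes, with 1 point per library. Slc17a7 separates replicate 1 from replicate 2 in the subtypes, and Slc17a6 and Slc17a8 stand highest in DL-Tshz2 (means 166 and 57.7 CPM).

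The comparison of the tissues asked whether cells of the same annotated type carried these genes at different levels in the striatum and the PFC. It was tested with edgeR over 4 libraries per tissue with genotype in the model, at an FDR under 0.05 and a fold change above 2. Of 16 tests of the 6 genes, 11 were called, where 5.58% of all 45946 tests were called. Most of these 11 pairs of gene and type passed the low-count filter through the tissue where the gene was high, with few UMIs in the other, so nothing is read from their share. With the replicate block, more genes passed the filter and 19 of 24 tests were called (6.98% of all tests). With cells thinned to 1000 UMIs, 5 of 8 were called (2.25% of all tests).

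In interneurons, Gad2 was lower in the striatum by a log2 FC of -1.83 (SE 0.17, FDR 4.5e-06) and Gad1 by -1.41 (SE 0.18, FDR 8.1e-05). Slc32a1 differed by -0.88 (SE 0.18, FDR 0.0034), short of the fold threshold. In this type 8.34% of 7877 genes were called. The libraries of the tissues did not overlap for any of the 3 GABA genes (exact permutation test, two-sided, p = 0.0286 each, the smallest that 4 against 4 allow). The share of all genes without overlap is not given here, so nothing is read from that count. Free RNA moved the other way, with Gad1 at 86.9 to 168 CPM in the PFC and 381 to 430 CPM in the striatum. Slc17a7 had 12 UMIs in PFC interneurons and 859 in striatal ones, a ratio of 26.1 per UMI with a counting interval of 14.8 to 50.6. Slc17a8 had 1 UMI in PFC interneurons and 143 in striatal ones, a ratio of 52.1 per UMI with a counting interval of 9.19 to 2070. Both of these genes reached the test through the striatal libraries, so their counts are given as a description. With the Slc17a7 cells left out, an alternative added after seeing the data, Gad1 was 1596 ± 263 CPM in PFC and 825 ± 146 CPM in striatal interneurons (log2 difference -0.96, exact permutation p = 0.0286). Gad2 was 1598 ± 330 against 612 ± 59.4 CPM (-1.37, exact permutation p = 0.0286), and Slc32a1 was 414 ± 109 against 307 ± 41.2 CPM (-0.40, exact permutation p = 0.114).

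Non-neuronal cells had higher levels of the GABA genes in the striatum, where free RNA held more of them. In microglia, the immune cells of the brain, Gad1 had 13 UMIs in the PFC and 114 in the striatum. There Gad2 had 16 and 143, and Slc32a1 had 4 and 72. In endothelial cells Gad1 had 16 UMIs in the PFC and 209 in the striatum, Gad2 had 5 and 264, and Slc32a1 had 1 and 122. In astrocytes Gad2 had 5 and 89 UMIs. These pairs reached the test mainly through the striatal libraries, so the UMIs are a description and no call or fold is read from them. Slc17a7 went the other way, with 23 UMIs in the PFC and 2 in the striatum in endothelial cells, 46 and 6 in oligodendrocytes and 38 and 1 in OPCs, as it did in free RNA (84.3 to 417 CPM in the PFC and 15.7 to 52.1 CPM in the striatum). Free RNA had Gad2 at 50.5 to 102 CPM in the PFC and at 348 to 366 CPM in the striatum, and Slc32a1 at 13.6 to 36.6 and 231 to 316 CPM. The means of these striatal types were at most 194 CPM for these genes, below the free RNA levels, and the part of free RNA in the differences was not tested. The striatal replicates differed as well. In the test added after seeing the data, 6 of 29 tests of the 6 genes were called, where 0.939% of all tests were. Higher in replicate 2 were Slc32a1 in endothelial cells (log2 FC 1.27), Gad2 in endothelial cells (1.06) and oligodendrocytes (1.4998) and Gad1 in oligodendrocytes (1.51). Setd1a+/- replicate 2 held only 67 of these oligodendrocytes, with 12 Gad1 and 11 Gad2 UMIs (75.5 and 69.2 CPM). In WT oligodendrocytes Gad1 went from 12.8 to 24.5 CPM and Gad2 from 12.2 to 24.5 CPM. The other calls were Slc32a1 in astrocytes and Slc17a6 in interneurons. These other calls passed the low-count filter mainly through the replicate where the gene was high, and their levels are a description. Nothing is read from the share called, which counts them. From replicate 1 to replicate 2, Slc32a1 in astrocytes went from 10.3 to 48.9 CPM (WT) and from 11.3 to 84.9 CPM (Setd1a+/-, where replicate 2 held 31 cells). Slc17a6 went from 35.6 to 4.94 CPM (WT) and from 12.3 to 5.66 CPM (Setd1a+/-). Free RNA had Gad1 at 381 and 394 CPM in the replicate 1 droplets and at 430 and 417 CPM in those of replicate 2. Its Gad2 was at 363 and 348 against 359 and 366 CPM, and its Slc32a1 at 231 and 234 against 316 and 237 CPM. In OPCs Gad1 was 34.7 CPM in the PFC and 73.9 CPM in the striatum (log2 FC 0.90, SE 0.30, FDR 0.21), which did not pass, in a type with 0.223% of genes called.

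The comparison of the genotypes asked whether loss of 1 copy of Setd1a changed these genes in any type, with edgeR over 2 libraries per genotype. None of the 6 genes was called: 0 of 12 tests in PFC types, 0 of 10 in excitatory neuron subtypes and 0 of 29 in striatal types. Over all genes, 0% of 51145, 0% of 44783 and 0.00544% of 73479 tests were called, so the thresholds left almost no calls for any gene. At an unadjusted p under 0.05, reached by 1.7, 1.6 and 2.62% of all tests, the 6 genes had 0, 0 and 2, and DESeq2 called 0, 0 and 0 of them. The genotype by tissue interaction gave 0 calls in 24 tests of the 6 genes and 0% of 49915 tests, with 0 against 2.21% of all tests when p was left unadjusted and had to be under 0.05. With the replicate block the calls over all genes were 26, 11 and 79, and none was among the 6 genes.

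In PFC interneurons the log2 FC was 0.01 (SE 0.25) for Gad1, -0.04 (SE 0.27) for Gad2 and 0.28 (SE 0.29) for Slc32a1. In D1 MSNs it was 0.06 (SE 0.14), -0.06 (SE 0.14) and -0.07 (SE 0.15), and in D2 MSNs -0.02 (SE 0.15), -0.09 (SE 0.17) and -0.16 (SE 0.17) for the same genes. In PFC excitatory neurons it was -0.22 (SE 0.66) for Slc17a7. With the replicate block it was -0.43 (SE 0.21, FDR 0.99), and in all 6 subtypes tested the blocked values were below 0, from -0.51 to -0.26. The subtypes are parts of the same cells in the same libraries, so they repeat the comparison. Within the replicates, the log2 ratio of Setd1a+/- to WT for Slc17a7 was -1.18 in replicate 1 and 0.41 in replicate 2 in DL-Foxp2. In DL-Nnat it was -0.83 and 0.24, and in the other subtypes tested both ratios were below 0. Over all excitatory neurons it was -0.95 in replicate 1 and 0.03 in replicate 2, so the direction of Slc17a7 there rested on replicate 1. Leaving out a library unbalances the replicates: without WT replicate 2 the log2 FC was 0.38 and without Setd1a+/- replicate 1 it was 0.45.

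The share of cells with a UMI was lower in both Setd1a+/- libraries than in both WT libraries for Gad2 in D1 MSNs (means 71.9 and 79.3%, thinned difference -4.99 points) and for Slc32a1 in D2 MSNs (means 54.0 and 66.2%, thinned difference -5.16 points). Thinned, Slc32a1 in PFC interneurons went the other way (means 24.04% in WT and 42.5% in Setd1a+/- libraries). In all, the genotypes did not overlap in 18 of 150 shares by gene and group (4 higher and 14 lower in Setd1a+/- mice), or in 11 of 150 after thinning (4 higher and 7 lower). The same count over all genes was not made, so nothing is read from these counts or from their direction. The exact permutation test gave p = 0.333 for each named share, the smallest that 2 against 2 allow.

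The 2 results at an unadjusted p under 0.05 were both in striatal interneurons, where 3.03% of 9195 genes reached it. Slc17a8 was lower in Setd1a+/- mice by a log2 FC of -1.22 (SE 0.41, edgeR FDR 1.0), and with the replicate block by -1.23 (FDR 0.42). Its libraries did not overlap (43.2 and 43.6 against 30.8 and 7.54 CPM), and the Setd1a+/- values rested on 4 cells in each library. Without Setd1a+/- replicate 1 the log2 FC was -2.47 (FDR 0.0014), a call in which the lone library was assumed to vary like the WT libraries. Chat, the cholinergic enzyme gene, stood at 12.1 and 16.5 CPM in WT libraries and 9.85 and 3.77 CPM in Setd1a+/- interneurons. Slc18a3 stood at 24.99 and 25.5 against 16.0 and 10.4 CPM, and Slc5a7 at 92.4 and 202 against 131 and 91.5 CPM. Fewer Slc17a8 cells and less Slc17a8 per cell cannot be told apart over so few cells. With the block 4 striatal results reached an unadjusted p under 0.05, adding Slc17a6 in interneurons (-0.996, FDR 1.0) and Gad2 in astrocytes (-1.09, FDR 0.79). The share of all genes reaching it with the block is not given here, so nothing is read from that count. Slc17a7 was lower by -0.44 (SE 0.19, edgeR FDR 1.0), at 251 and 191 against 149 and 165 CPM. Slc17a6 differed by -1.20 (SE 0.70), with 35.6 CPM in WT replicate 1 and 4.94 to 12.3 CPM in the other libraries; without WT replicate 2 its log2 FC was -1.98 (FDR 0.035), and without WT replicate 1 it was 0.84. In SL-Cux2 neurons, leaving out Setd1a+/- replicate 2 gave calls for Gad1 (log2 FC 3.203, FDR 0.039), which had 28 UMIs in 9 cells of the 4 libraries, and Slc17a7 (-1.46, FDR 0.0054). That sets a lone Setd1a+/- library of replicate 1 against WT libraries of both replicates, so genotype and replicate cannot be told apart, and with the replicate block Slc17a7 stood at -0.40 (FDR 1.0).

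Other genes of the transmitter cycle and of the neuron classes were read from lists. Of the 21 genes for the synthesis, breakdown, uptake and recycling of GABA and glutamate, 16 were tested between tissues in interneurons. In the striatum, 1 was called higher and 1 lower, against 8.34% of all genes in this type, and the higher one was Slc1a2, the glutamate transporter GLT-1 (log2 FC 1.27), with a median of -0.16 against 0.01 over all genes. Of 7 GABAergic transcription factors tested, 0 were higher and 4 lower, among them Dlx1 (-2.40) and Dlx5 (-1.41), with a median of -1.41. These values are over all striatal interneurons, the Slc17a7 cells included. Sp8, also called lower, had means of 25.7 CPM in PFC and 9.06 CPM in striatal interneurons and reached the test mainly through the PFC. The excitatory factors already shown in the Slc17a7 cells reached the test through the striatum, so their calls are not given as a result: Neurod6 had means of 4.81 CPM in PFC and 98.7 CPM in striatal interneurons, Tbr1 1.82 and 51.0 CPM and Neurod2 0.498 and 26.9 CPM. In astrocytes, where 10.1% of all genes were called, Slc25a18, a mitochondrial glutamate carrier, was lower by -2.19. Slc38a1, a glutamine transporter, had means of 19.0 CPM in PFC and 208 CPM in striatal astrocytes. It reached the test mainly through the striatum, so its call is not given as a result. In endothelial cells (5.3% of all genes called) Abat (1.55), which breaks down GABA, and Slc6a13 (1.30), a GABA transporter, were among the genes higher in the striatum. In microglia (18% of all genes called) Glul (-1.14), the glutamine synthetase, Slc1a3 (-1.77) and Slc1a2 (-1.84) were lower. Free RNA was not summed for the genes of the lists, so its part in their levels was not tested. Pdxk had means of 9.80 CPM in PFC and 56.3 CPM in striatal microglia, and Got1 31.0 and 129 CPM. Both reached the test mainly through the striatum, so these means are a description. Between genotypes edgeR called 0 genes of the lists in PFC types, excitatory neuron subtypes and striatal types. At an unadjusted p under 0.05 there were 5 of 394 list tests (1.27%), against 1.7, 1.6 and 2.62% of all tests in these comparisons: Slc38a2 in PFC newly formed oligodendrocytes (-1.05), Slc6a11 in PFC OPCs (-1.42), Slc38a1 in striatal astrocytes (1.08), Abat in striatal endothelial cells (-0.76) and Neurod1 in DL-Nnat neurons (1.02).

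Across the 18 combinations of tissue and cell type, the genes most like each member were found by Pearson's r of log2(CPM + 1), as a description over groups that share libraries and depth. Gad2 and Slc32a1 were most alike (r = 0.98), and Gad1 had r = 0.94 with both. After the members themselves, the nearest genes to Gad1 were Dlx6 (0.89), AW551984 (0.88) and Dlx5 (0.87), and those nearest to Gad2 were Dlx5 and Dlx6 (both 0.90). For Slc32a1 they were the neuropeptide genes Cartpt (0.90) and Pdyn (0.90). Those nearest to Slc17a7 were Tbr1 (0.97), Neurod6 (0.97) and Neurod2 (0.97). Slc17a8 was most like Hs3st2 (0.90), over 236 UMIs in all cells against 7848 for Slc17a7, and Ovol2 (0.92) and Gm11549 (0.90) were among the 5 genes nearest to Slc17a6, which had 483 UMIs.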

How the data were processed

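Single-cell RNA sequencing was analysed in 8 libraries, 2 for each tissue and genotype. The authors deposited raw counts, UMIs per gene and barcode from Cell Ranger 3.0.2 (build mm10 per the submitters' processing notes), with every droplet included. Other tables deposited by the authors hold names of genes and barcodes and, from Seurat 3.2.0, the annotation of cells kept at 800 genes or more and under 10% mitochondrial UMIs.

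The annotated cells were looked up in the counts, UMIs were summed per library and cell type (at least 10 cells per library for a test), and CPM was computed from the sums. Sums were tested with edgeR 4.0.16 (quasi-likelihood, TMM, genes kept by filterByExpr at 10 counts, Benjamini-Hochberg over all genes of a type) in R 4.3.3. Calls needed an FDR under 0.05 and a fold change above 1.5 (PFC) or 2 (striatum, and between tissues). DESeq2 1.42.0, no filter, other scaling, thinning to 1000 UMIs, a replicate block and leaving out each library were alternatives. Single values were tested by exact permutation with 1 CPM added before the log2. Wilson intervals (95%) cover counting error alone. A count of 0 allows 3 UMIs. No doublet caller was run, and doublet removal by the authors is not stated in the sources used here. Pools of mice are the replicates, and each pool is 1 sample.

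The methods give each biological replicate 1 library of each genotype, so same-numbered libraries were taken as pairs; their deviations had a median correlation across genes of 0.37 in PFC types, 0.46 in excitatory neuron subtypes and 0.19 in striatal types. The members, the gene lists and the named genes (the 6 members, and the list genes called) were chosen with earlier results of these data known. The tests between replicates and the interneurons without Slc17a7 UMIs were added after seeing the data. Some genes of the lists are not reported here. Scripts were tested on simulated data.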

Additional observations from a re-analysis of the deposited data

How the results depend on the processing

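Over all genes, the genotype calls moved with the processing: in PFC types from 0 to 63 without a filter on low counts, 1 with DESeq2, 26 with the replicate block and 25 to 122 with each library left out; in excitatory neuron subtypes from 0 to 28 without the filter, 11 with the block and 7 to 306 with a library left out (306 without Setd1a+/- replicate 2); and in striatal types from 4 to 110 without the filter, 79 with the block and 67 to 402 with a library left out (402 without Setd1a+/- replicate 1). Interaction calls went from 0 to 26 without the filter and 0 to 4 with a library left out. Tissue calls went from 2562 to 5538 without the filter, 578 with cells thinned and 1692 to 3736 with a library left out (1692 without PFC WT replicate 1). Among the 6 genes, genotype calls were 0 to 2 in excitatory neuron subtypes and 0 to 1 in striatal types with a library left out, and tissue calls went from 11 of 16 tests to 25 of 37 without the filter (4.9% of all tests called), 5 of 8 with cells thinned (2.25%) and 19 of 24 with the block (6.98%, 3485 calls over all genes). The block changed no other call of the 6 genes.

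With each library left out in turn, these log2 FCs between genotypes changed direction: in PFC interneurons Gad1 ran from -0.21 to 0.27, Gad2 from -0.31 to 0.30 and Slc32a1 from -0.047 to 0.55; in PFC excitatory neurons Slc17a7 ran from -1.52 to 0.45, Slc17a6 from -0.37 to 0.012 and Slc17a8 from -1.13 to 0.85; in D1 MSNs Gad1 from -0.027 to 0.14, Gad2 from -0.14 to 0.014 and Slc32a1 from -0.21 to 0.084; in D2 MSNs Gad1 from -0.10 to 0.061, Gad2 from -0.23 to 0.042 and Slc32a1 from -0.31 to 0.015; and in striatal interneurons Gad1 from -0.063 to 0.65, Gad2 from -0.12 to 0.35, Slc32a1 from -0.15 to 0.35 and Slc17a6 from -1.98 to 0.84. Gad1 in PFC interneurons was -0.019 with library size scaling alone. Thinned to 1000 UMIs, the log2 FC was 0.024 for Slc32a1 in D1 MSNs, 0.019 for Gad1 in D2 MSNs and -0.35 for Slc32a1 in striatal interneurons. Gad2 between tissues in microglia, which reached the test mainly through the striatum, was not called with cells thinned (log2 FC 3.09, FDR 0.056). Without Slc17a7 cells, Slc32a1 between tissues was -0.40. Of 12 differences in the share of cells between genotypes, 7 kept their direction with thinning and 5 reversed, to 1.43 and 2.35 percentage points for Gad1 and Gad2 in PFC interneurons, 0.68 and 0.33 for Gad1 in D1 and D2 MSNs and 0.15 for Slc17a7 in striatal interneurons. Thinning leaves fewer UMIs per cell, and with it the striatal interneurons with Slc17a7 and no GABA gene moved to 9.39%. The PFC interneurons with Gad1 and Gad2 moved from a mean over libraries of 90.4 to 53.1% (51.3% over all cells). Gad1 in striatal OPCs moved to 81.7% of the UMIs of Gad1 and Gad2 with thinning. It moved to 82.6% without the 5% of cells with most UMIs. For these and the other changes the cause was not tested.

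Depth limits Slc17a6 and Slc17a8, with 483 and 236 UMIs in all cells, and the 2 libraries per genotype limit each genotype test: an exact permutation test of 2 against 2 cannot go below p = 0.333.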
